A study of Mus musculus and Sus scrofa with 18 samples.

Results

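Genes that mark the GABA-releasing interneurons of the striatum were followed in 9 mice. The set held 10 genes, chosen by name as markers of interneuron classes and matched by symbol to the Ensembl IDs of the mouse count table: Sst, Npy, Nos1, Cort, Chodl, Pvalb, Th, Calb2, Cck and Vip. Each symbol matched 1 of the 55357 gene IDs, and all 10 genes had enough counts to be among the 19463 genes tested. The rule goes by name and uses no measured value, though the set was put together with earlier results of these data known. These interneurons were put forward as cells spared in Huntington's disease (HD), but no cell was counted here, so whether they were spared was not tested. One of the 10 genes, Nos1, was lower in untreated HD mice than in WT mice, a share near that of all tested genes (10.7%), and its call was lost in 8 of the 9 fits that left out 1 library.

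The study asked whether cutting mutant HTT mRNA with CasRx, an enzyme that a guide RNA (gRNA) directs to RNA, alters the striatum of HD knock-in mice, and striatal RNA of 3 mice in each of 3 groups was sequenced. HD 140Q-KI mice carry 1 Htt allele in which exon 1 comes from human HTT and holds an expanded CAG repeat, in every cell, and 1 normal allele. WT mice received AAV9 with Ctrl gRNA and no CasRx, untreated HD mice received AAV9-CasRx with Ctrl gRNA, and treated HD mice received AAV9-CasRx with 4 HTT gRNAs. The virus was injected into the striatum on both sides at 6 months of age, and the tissue was taken 1.5 months later. Both HD groups differ from WT in the allele and in the CasRx vector, and these cannot be told apart.

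Interneurons are a small minority of striatal neurons, most of which are the spiny projection neurons that die in HD. One interneuron class makes the peptides somatostatin and neuropeptide Y together with neuronal nitric oxide synthase, and is known for surviving in HD striatum, while others are told by parvalbumin, by calretinin, by tyrosine hydroxylase, or by cholecystokinin and vasoactive intestinal peptide. Several of these genes are also used outside the striatum, with Cck and Vip both made by neurons of the overlying cortex. In RNA from whole tissue, fewer cells of a type and less RNA per cell cannot be told apart. The paper states that these knock-in mice lack significant loss of neurons. Its measures of NeuN, a protein of neuron nuclei, did not change with treatment. NeuN does not separate interneurons from projection neurons.

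Libraries were similar in depth, from 27184356 to 32102121 counts. Htt, the targeted gene, stood at 182 to 191 CPM in WT, 140.4 to 149.6 CPM in untreated and 130.5 to 139.7 CPM in treated mice, where CPM are counts scaled to a common library size. Reads were taken from the 3′ end of mRNA and do not separate the knock-in from the normal allele. Untreated and treated mice did not overlap for Htt, but the difference did not pass the test (log2 fold change of -0.10, edgeR adjusted p = 0.942). Markers of other tissue differed widely between mice. The sum of 8 cortical excitatory neuron genes was 979 CPM in WT replicate 1 against 406 and 239 CPM in WT replicates 2 and 3, and 10 choroid plexus genes summed to 3871 CPM in WT replicate 2 against 67.6 CPM in WT replicate 1. Counts from Y-linked genes were present in the 3 WT mice and untreated replicate 1 and at 0 in the other 5 mice, so sex and group could only be separated through untreated replicate 1.

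Across the 10 markers, 1 gene, Nos1, passed the test between untreated and WT mice, and it was lower. The test was the quasi-likelihood test of edgeR, adjusted by Benjamini-Hochberg over all tested genes, with an adjusted p under 0.05 as the threshold. Of all tested genes, 10.7% passed (4.58% higher and 6.1% lower), so 1 of 10 was near the background. An unadjusted P under 0.05 was reached by 4 of the 10 markers, Nos1, Npy, Cck and Vip, against 28.6% of all genes. The median log2 fold change of the 10 genes was 0.27, beside 0.02 over all tested genes. Cck and Vip were higher without overlap between the groups and Nos1 was lower without overlap, while 15% of all genes were higher in this way and 15.1% lower.

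**Figure D1:**
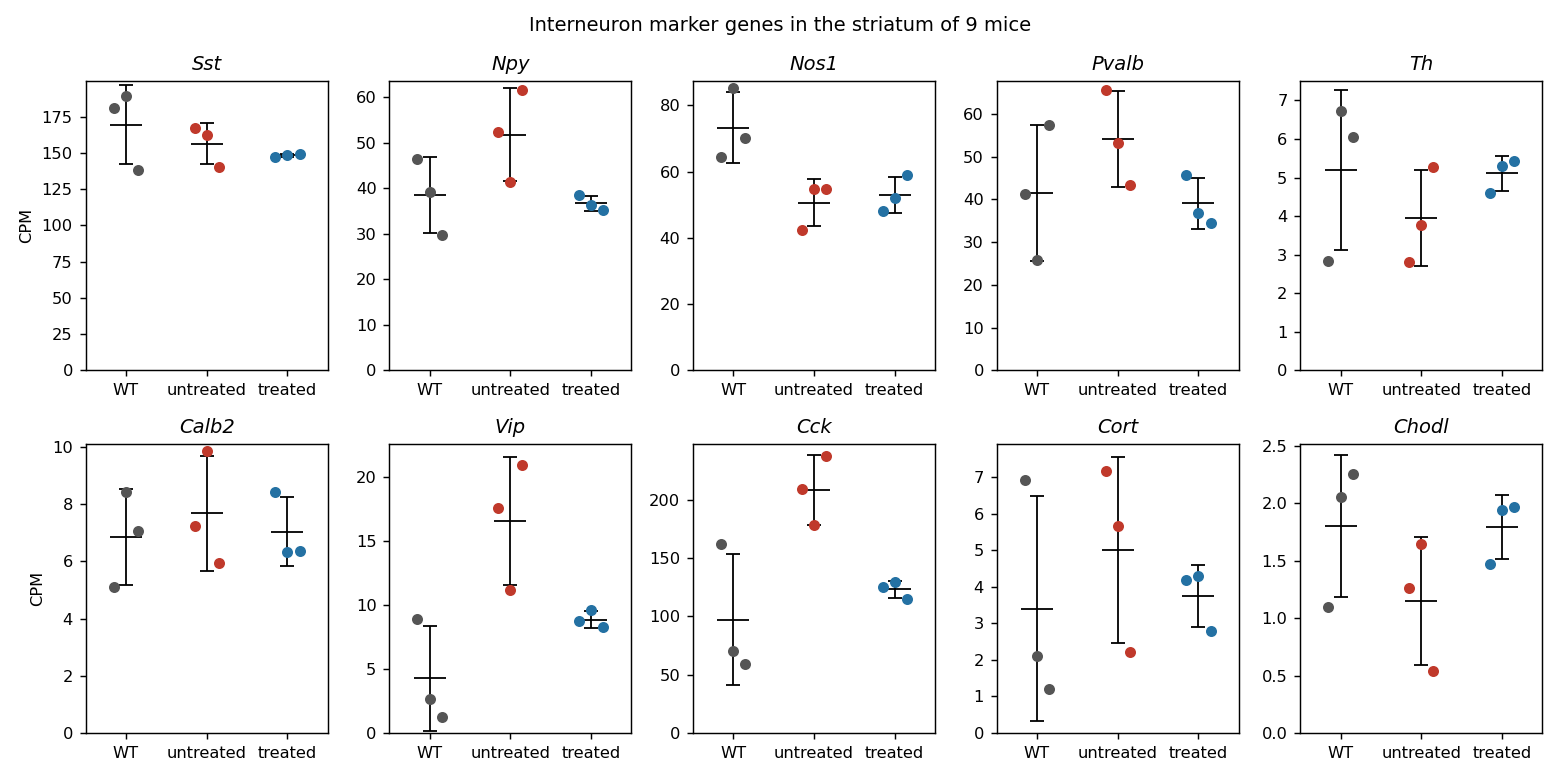
Level of each marker gene in the striatum of each mouse (y axis, CPM, from 0), by group on the x axis, with 1 point per mouse, a line at the group mean and bars of 1 SD (n = 3). The 3 untreated mice lie below the 3 WT mice for Nos1 (42.4 to 54.7 against 64.3 to 85.2 CPM) and above them for Cck and Vip, whereas the 3 groups overlap for Sst.

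The somatostatin class was described by 5 of the genes. Nos1, which makes nitric oxide in neurons, stood at 64.3, 85.2 and 70.1 CPM in WT mice. It stood at 42.4, 54.6 and 54.7 CPM in untreated mice and at 48.0, 52.0 and 58.9 CPM in treated mice. Every HD mouse, untreated or treated, was thus below the lowest WT mouse. Group means were 73.2 ± 10.8 CPM in WT, 53.0 ± 5.50 CPM in treated and 50.6 ± 7.06 CPM in untreated mice (SD, n = 3), and the HD groups overlapped each other. In untreated mice Nos1 was lower than in WT by a log2 fold change of -0.53 (SE 0.14, 95% interval -0.84 to -0.23, edgeR adjusted p = 0.0373). The call was near the threshold, and it was lost in 8 of the 9 fits that left out 1 library, where the log2 fold change ranged from -0.63 to -0.41 and the edgeR adjusted p from 0.0224 to 0.110. It was also lost with a term for Y-linked counts (-0.79, adjusted p = 0.0787), a fit in which 1.29% of all genes passed. Of the annotated genes that overlap Nos1, Gm37028 held 0 counts and the antisense gene Gm26995 held 14 counts over all libraries.

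Sst, which encodes the inhibitory peptide somatostatin, overlapped across the groups. It stood at 181, 189 and 138 CPM in WT mice, at 167, 162 and 140.1 CPM in untreated mice and at 147, 149 and 149 CPM in treated mice. The WT and both HD groups overlapped, and WT replicate 3 held the lowest value of the 9. The untreated mean of 156 ± 14.4 CPM lay between the WT mean of 169.5 ± 27.2 CPM and the treated mean of 149 ± 1.06 CPM (SD, n = 3), and no neighbours in that order differed beyond their spread. The log2 fold change between untreated and WT mice was -0.12 (SE 0.11, edgeR adjusted p = 0.554), with a 95% interval from -0.37 to 0.14. Of the 10 markers Sst had the smallest standard error.

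Npy encodes neuropeptide Y, which the same cells release. WT mice held 46.4, 39.1 and 29.8 CPM, untreated mice 52.3, 41.3 and 61.7 CPM, and treated mice 38.5, 36.3 and 35.3 CPM. Untreated replicates 1 and 3 were above every other mouse, but untreated replicate 2 was inside the WT range. Against WT the untreated value was 0.43 (log2 fold change, SE 0.17), with an unadjusted P of 0.0344 and an edgeR adjusted p of 0.138. Npy and Nos1, both listed here under the somatostatin class, thus had estimates of opposite sign. Whether the same cells made both RNAs in this tissue was not tested. The estimate of Npy turned to -0.0550 (edgeR adjusted p = 0.944) in a fit with the summed level of 8 cortical marker genes as a term. The ratio of Nos1 to Npy CPM was 1.39, 2.18 and 2.35 in WT mice and 0.811, 1.32 and 0.886 in untreated mice. Those 2 groups did not overlap, which gave p = 0.1 in a two-sided exact permutation test, the smallest that 3 mice against 3 allow. In treated mice the ratio was 1.25, 1.43 and 1.67, overlapping both other groups. The ratio of Nos1 to Sst overlapped between untreated and WT mice (p = 0.2, two-sided exact permutation test).

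Cort and Chodl were the rarer genes of this class. Cort encodes cortistatin, a peptide close to somatostatin, and stood at 6.91, 2.09 and 1.20 CPM in WT, 7.16, 5.68 and 2.21 CPM in untreated and 4.20, 4.28 and 2.78 CPM in treated mice. The range within the WT mice covered all treated mice and all but 1 of the untreated mice, and the untreated log2 fold change of 0.56 had a standard error of 0.61 (edgeR adjusted p = 0.585). Chodl encodes chondrolectin, a membrane lectin that marks a long-range projecting type of these cells in cortex. It stood at 1.10, 2.06 and 2.26 CPM in WT, 1.26, 1.65 and 0.544 CPM in untreated and 1.47, 1.94 and 1.97 CPM in treated mice, which were between 16 and 68 reads in a library. The groups overlapped, and at this depth the untreated value of -0.65 (SE 0.41, edgeR adjusted p = 0.330) was not distinguishable from no difference, with a 95% interval from -1.57 to 0.27.

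Pvalb, Th and Calb2 mark other interneuron classes, and none of the 3 passed the test. Pvalb encodes parvalbumin, the calcium buffer of fast-spiking interneurons. Its levels were 41.3, 25.8 and 57.5 CPM in WT, 65.7, 53.2 and 43.4 CPM in untreated and 45.8, 36.9 and 34.5 CPM in treated mice. The WT mice spread over the ranges of both HD groups but for untreated replicate 1. Against WT, the untreated log2 fold change was 0.38 (SE 0.26, edgeR adjusted p = 0.373), and it ranged from 0.13 to 0.69 over fits that left out 1 library.

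Th encodes tyrosine hydroxylase, the first enzyme of dopamine synthesis, and was rare in this tissue. WT mice held 2.83, 6.72 and 6.05 CPM, untreated mice 2.81, 3.76 and 5.27 CPM, and treated mice 4.60, 5.30 and 5.43 CPM. Untreated and WT mice shared the lowest values, near 2.8 CPM, and overlapped (log2 fold change of -0.40, SE 0.33, edgeR adjusted p = 0.460). Of 8 genes of midbrain dopamine neurons, whose axons reach the striatum, 3 had enough counts to be tested, none of the 3 passed by edgeR or had an unadjusted P under 0.05 in that comparison, and Foxa2 was at 0 in every library. Calb2 encodes calretinin, the calcium-binding protein of a further class. It stood at 5.10, 8.44 and 7.05 CPM in WT, 7.23, 9.87 and 5.95 CPM in untreated and 8.43, 6.33 and 6.36 CPM in treated mice. All groups overlapped, and the untreated log2 fold change was 0.16 (SE 0.24, 95% interval -0.38 to 0.70, edgeR adjusted p = 0.703).

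Sst and Th shared a feature of sequence near the start of the gene. Of the 10 markers, 9 matched a promoter in RefSeq (GRCm38.p6, 250 bases before to 50 after the start), and these were searched for the full cAMP response element TGACGTCA, which reads the same on both strands and is the site bound by CREB, known best from the somatostatin gene. The windows below, on the minus strand of chr16:23890875-23890902 and chr7:142900023-142900050, hold it in capitals, beginning 48 bases before the start of Sst and 45 bases before that of Th.
Sst: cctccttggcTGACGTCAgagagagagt
Th: agaggggcttTGACGTCAgcctggcctt
Among 32851 promoters of the same length, 588 (1.79%) held these letters, against 2 of the 9 markers with a promoter. As the element is known from the somatostatin gene, the match in Sst was known in advance, and the 2 shares do not test an excess. The shorter TGACG on either strand, which lies within the full element, was in 6 markers (Sst, Th, Nos1, Vip, Cck and Cort) and in 20.8% of all promoters. These are matches of letters in a window, and neither Sst nor Th passed the test in any of the 3 comparisons.

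Cck and Vip held the 2 largest estimates of the set, and neither passed the test. Cck encodes cholecystokinin, a peptide of interneurons and of many cortical neurons. It stood at 162, 70.0 and 59.6 CPM in WT, 209, 178 and 238 CPM in untreated and 125, 129.6 and 115 CPM in treated mice. Each untreated mouse was above all 6 other mice, and WT replicate 1 was above the treated mice while WT replicates 2 and 3 were below them. The untreated log2 fold change against WT was 1.10 (SE 0.32, 95% interval 0.39 to 1.81, edgeR adjusted p = 0.0559). Vip encodes vasoactive intestinal peptide, and stood at 8.95, 2.64 and 1.23 CPM in WT, 17.6, 11.2 and 21.0 CPM in untreated and 8.73, 9.59 and 8.27 CPM in treated mice. Untreated mice were again above all others, and WT replicate 1 lay among the treated mice. The untreated value against WT was 1.96 (log2 fold change, SE 0.57, 95% interval 0.68 to 3.24, edgeR adjusted p = 0.0572).

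Both estimates moved with WT replicate 1. Without it the untreated log2 fold change was 1.67 for Cck (edgeR adjusted p = 2.43e-04) and 3.09 for Vip (edgeR adjusted p = 0.00136), and both passed the test. With WT replicate 1 kept, both also passed with DESeq2 (adjusted p = 0.0387 for Cck and 0.0284 for Vip), where each library had to hold 10 counts or more, and with replicate number as a block, and Cck passed without TMM scaling, so their side of the threshold differed between settings. A change of at least 2-fold with an unadjusted P under 0.05, which 8.16% of all genes had, was found for 2 markers, Cck and Vip, both higher, and both also had a P under 0.01, as did 4.86% of all genes.

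Cortical marker genes moved with Cck and Vip across the mice. The 8 genes summed to 979, 406 and 239 CPM in WT, 1378, 1154 and 1369.9 CPM in untreated and 841, 835 and 778 CPM in treated mice, with no marker of the 8 at 0. Between untreated and WT mice 2 of the 8, Nrn1 (log2 fold change of 1.69) and Neurod2 (1.68), were higher by edgeR, and their median was 1.31. With group means removed, Pearson's r with the log2 sum over the 9 libraries was 0.96 for Cck and 0.98 for Vip, and Spearman's rho was 0.88 and 0.95. Without WT replicates 1 and 3, the farthest from the median, r was 0.93 and 0.89. These are descriptions over libraries that share 3 group means. The part of the cortical marker genes in the Cck and Vip results was not tested beyond a fit with their sum as a term, chosen after seeing the data, in which Cck was at 0.11 (edgeR adjusted p = 0.823) and Vip at 0.23 (edgeR adjusted p = 0.767). In that fit 0.247% of all genes passed, and Nos1 was at -0.36 (edgeR adjusted p = 0.571).

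Per 1000 CPM of the 8 cortical genes, Cck was 166, 172 and 249 CPM in WT, 152, 155 and 174 CPM in untreated and 149, 155 and 148 CPM in treated mice. On this scale WT and untreated mice overlapped (p = 0.3, two-sided exact permutation test), and treated mice were below WT mice without overlap. Vip per 1000 CPM of the same genes was 9.14, 6.51 and 5.14 CPM in WT, 12.8, 9.66 and 15.3 CPM in untreated and 10.4, 11.5 and 10.6 CPM in treated mice. Both HD groups were above WT without overlap on this scale (p = 0.1 each, the smallest possible, two-sided exact permutation test). Npy went the other way on this scale, at 47.4, 96.4 and 125 CPM in WT, 38.0, 35.8 and 45.1 CPM in untreated and 45.8, 43.4 and 45.4 CPM in treated mice. Both HD groups were below WT without overlap (p = 0.1 each, two-sided exact permutation test). In plain CPM, however, Npy overlapped between WT and each HD group, while the cortical sum was higher in untreated than in WT mice without overlap. Values on this scale thus carry differences in that sum as well as in the gene. The share of all genes apart on this scale was not computed. Cort overlapped between all groups. The ratio of Vip to Cck showed the same order, from 0.0206 to 0.0552 in WT, 0.0625 to 0.0881 in untreated and 0.0696 to 0.0740 in treated mice.

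**Figure D2:**
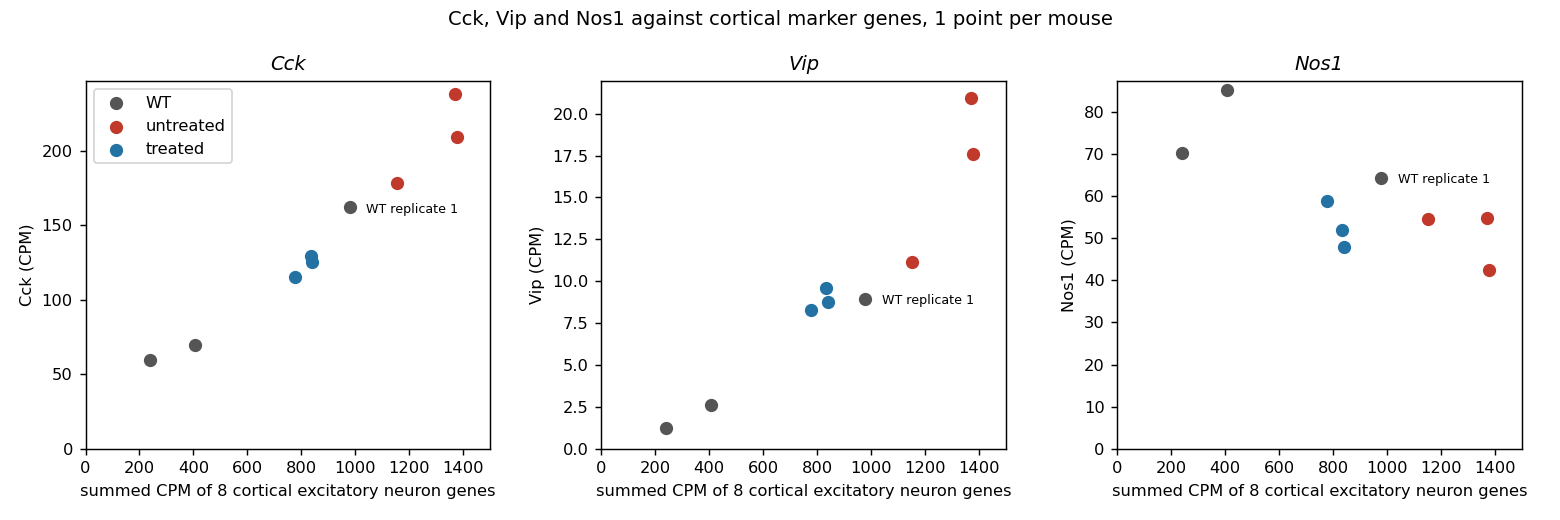
Level of Cck, Vip and Nos1 (y axes, CPM, from 0) against the summed level of 8 cortical excitatory neuron genes (x axis, CPM), 1 point per mouse, coloured by group. Cck and Vip run from their lowest in WT replicate 3, with the least cortical marker RNA (239 CPM), to their highest in untreated replicate 3 (1369.9 CPM). For Nos1 the untreated (42.4 to 54.7 CPM) and treated mice (48.0 to 58.9 CPM) lie below the WT mice (64.3 to 85.2 CPM).

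Between treated and WT mice, 0 of the 10 markers passed edgeR's test, against 3.69% of all tested genes. One of the 10, Nos1, had an unadjusted P under 0.05, as did 21.4% of all genes, and DESeq2 called Nos1 alone (adjusted p = 0.0267), while it called 1872 of the 18692 genes it tested. Nos1 was at -0.47 (log2 fold change, SE 0.14, 95% interval -0.77 to -0.16, edgeR adjusted p = 0.0899), with the groups apart, and 15.1% of all genes were lower without overlap. Sst and Npy, which encode peptides of the somatostatin class, did not pass. Sst was at -0.19 (SE 0.11, 95% interval -0.45 to 0.07, edgeR adjusted p = 0.375) and Npy at -0.07 (SE 0.17, edgeR adjusted p = 0.864). Vip was at 1.06 (SE 0.56, edgeR adjusted p = 0.316) and Cck at 0.34 (SE 0.32, edgeR adjusted p = 0.573). Without WT replicate 1 both passed, Vip at 2.19 (edgeR adjusted p = 0.0123) and Cck at 0.92 (edgeR adjusted p = 0.00622). Pvalb, Th, Calb2, Cort and Chodl had estimates from -0.09 to 0.15, and the median of the 10 was -0.02, beside 0.00 over all genes.

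Treated and untreated HD mice, which both carried CasRx and differed in the gRNAs, showed no marker past the threshold by edgeR. No gene in the whole table passed either (0%), 5.5% had an unadjusted P under 0.05, and DESeq2 called 45 genes, none of them a marker. An unadjusted P under 0.05 was reached by 2 of the 10 markers, Npy and Cck, by edgeR. Npy was at -0.50 (log2 fold change, SE 0.17, edgeR adjusted p = 0.886) and Cck at -0.76 (SE 0.32, edgeR adjusted p = 0.889). Vip was at -0.90 (SE 0.55, edgeR adjusted p = 0.942). For these 3 genes every treated mouse was below every untreated mouse, as for 8.83% of all genes. All 8 cortical genes also had lower estimates in treated than in untreated mice (median -0.57), and their sum did not overlap (778 to 841 against 1154 to 1378 CPM). With that sum as a term the values were -0.27 for Npy, -0.25 for Cck and 0.0851 for Vip. Nos1 was at 0.07 (SE 0.14, 95% interval -0.24 to 0.37, edgeR adjusted p = 0.995) and Sst at -0.08 (SE 0.11, 95% interval -0.33 to 0.18, edgeR adjusted p = 0.995). The median of the 10 markers was -0.27, beside -0.01 over all genes. The comparisons with WT share the WT mice, and those of untreated mice share the untreated mice, so their values are not independent of each other.

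**Figure D3:**
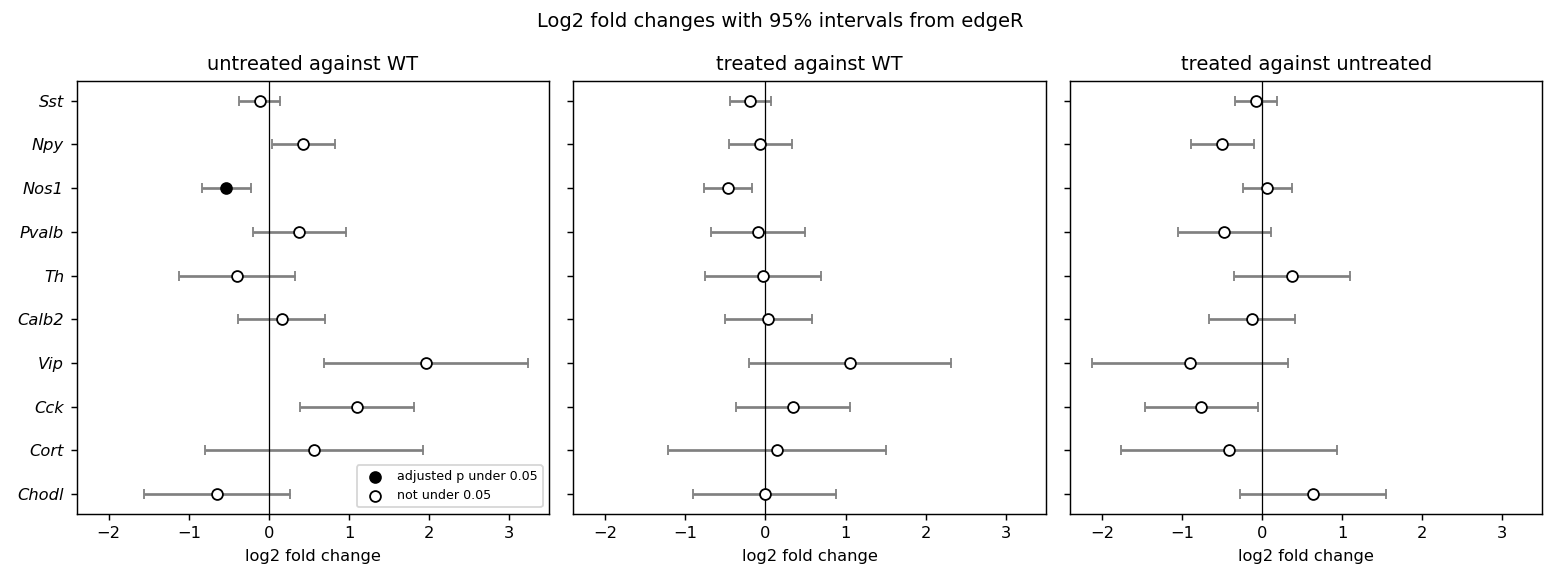
Log2 fold changes of the 10 marker genes (x axis) with 95% intervals, from the edgeR fit of all 9 libraries, in the 3 comparisons, where a filled point marks an adjusted p under 0.05. The interval of Nos1 lies below 0 against WT in both HD groups (-0.84 to -0.23 and -0.77 to -0.16), the narrowest intervals are those of Sst, and Vip and Cort have the widest.

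The markers differed in how far mice of the same group were spread. Among WT mice the coefficient of variation was lowest for Nos1 (14.7%) and Sst (16.0%) and highest for Cort (90.4%) and Vip (96.2%). Treated mice were closer together than WT mice for all 10 genes, from 0.711% for Sst to 22.5% for Cort. The share of all tested genes with this order was not computed, so it cannot be read as a trait of the markers. Among untreated mice the coefficient of variation ran from 9.18% for Sst to 50.7% for Cort.

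Markers of a single class did not always move together between mice. With group means removed from log2 CPM over the 9 libraries, Pearson's r was 0.32 between Sst and Npy, 0.01 between Sst and Nos1, -0.18 between Npy and Nos1 and 0.72 between Sst and Cort. The other pairs of the somatostatin class were at -0.87 (Npy and Chodl), -0.57 (Nos1 and Cort), -0.06 (Cort and Chodl), 0.13 (Sst and Chodl), 0.17 (Nos1 and Chodl) and 0.32 (Npy and Cort). The highest values of Npy were those with Vip (0.88) and Cck (0.80), and Vip and Cck reached 0.97. Npy had r of 0.79 with the cortical marker sum, -0.92 with the cholinergic, -0.89 with the hypothalamic and -0.82 with the projection neuron sum. The hypothalamic sum was low, at 5.93 to 14.6 CPM. Its highest value was that of untreated replicate 2, where Pomc alone held 7.19 CPM, so this r leans on 1 gene in 1 library. Sst had r of -0.81 with the thalamic and 0.58 with the cortical sum, and Nos1 had -0.34 with the cortical and 0.54 with the projection neuron sum. Nos1 had r of 0.77 with Th and -0.77 with Pvalb. These values describe 9 libraries of similar depth, between which markers of other tissue differed widely, and the part of the dissection in them was not tested. Among 12406 genes with at least 5 CPM on average, the 3 whose deviations were most like those of Sst were Cyb5d1 (0.99), Chrm1 (0.99) and Ankrd34a (0.98).

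Genes for making and moving GABA, the transmitter of all these interneurons and of projection neurons, were lower in untreated mice for 3 of the 6 tested. They were Slc32a1, the vesicular GABA transporter (log2 fold change of -0.77, SE 0.14), Gad2, an enzyme of GABA synthesis (-0.80, SE 0.17), and Abat, which breaks GABA down (-0.59, SE 0.09), with edgeR adjusted p of 0.0108, 0.0207 and 0.00481. No gene of the 6 was higher, and the median was -0.41. Between treated and WT mice 0 of 6 passed by edgeR, 3 had an unadjusted P under 0.05, and the median was -0.25. These counts, and those of the further lists, stand beside 4.58% of all tested genes that were higher and 6.1% that were lower in untreated mice, and 3.69% that passed in either direction in treated mice.

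Transcription factors of interneuron development gave changes in both directions. Of 12 tested, 3 were higher and 1 was lower in untreated mice, and the median was 0.23. Maf, a factor of interneurons from the medial ganglionic eminence, rose by 1.01 on the log2 scale (SE 0.12, edgeR adjusted p = 0.00185) and Satb1, which somatostatin interneurons of cortex need, by 1.19 (SE 0.31, edgeR adjusted p = 0.0396). Among WT mice Satb1 was highest in replicate 1 (74.0 CPM) and lowest in replicate 3, the order of the cortical marker sum. Treated mice also kept the order of that sum, whereas untreated mice did not. The part of cortical tissue in the Satb1 result was not tested. Nkx2-1, which is needed to form striatal interneurons, was lower (-1.72, SE 0.32, edgeR adjusted p = 0.0138). Lhx6, which acts after it in that lineage and was named after its value was seen, was at -0.17 (edgeR adjusted p = 0.567). In treated mice Maf alone of the 12 passed against WT (0.68, SE 0.12, edgeR adjusted p = 0.0198).

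Of 14 further interneuron genes, 4 were lower and 1 was higher in untreated mice, with a median of 0.15. Reln, which encodes the secreted protein reelin, was at -0.87 (SE 0.12, edgeR adjusted p = 0.00291), and Tacr1, the substance P receptor carried by somatostatin and cholinergic interneurons, was at -1.25 (SE 0.17, edgeR adjusted p = 0.00343). Pthlh, a marker of the parvalbumin class in striatum, was at -1.08 (SE 0.21, edgeR adjusted p = 0.0161). The other 2, Kit (-0.41, edgeR adjusted p = 0.0273) and Crhbp, the binding protein of corticotropin-releasing hormone (1.48, edgeR adjusted p = 0.0405), were named after their values were seen. Pthlh and Tacr1 were lower while Pvalb at 0.38, Sst at -0.12 and Npy at 0.43 did not pass. Between treated and WT mice Reln was the 1 gene of 14 to pass (-0.66, SE 0.12, edgeR adjusted p = 0.0181).

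**Figure D4:**
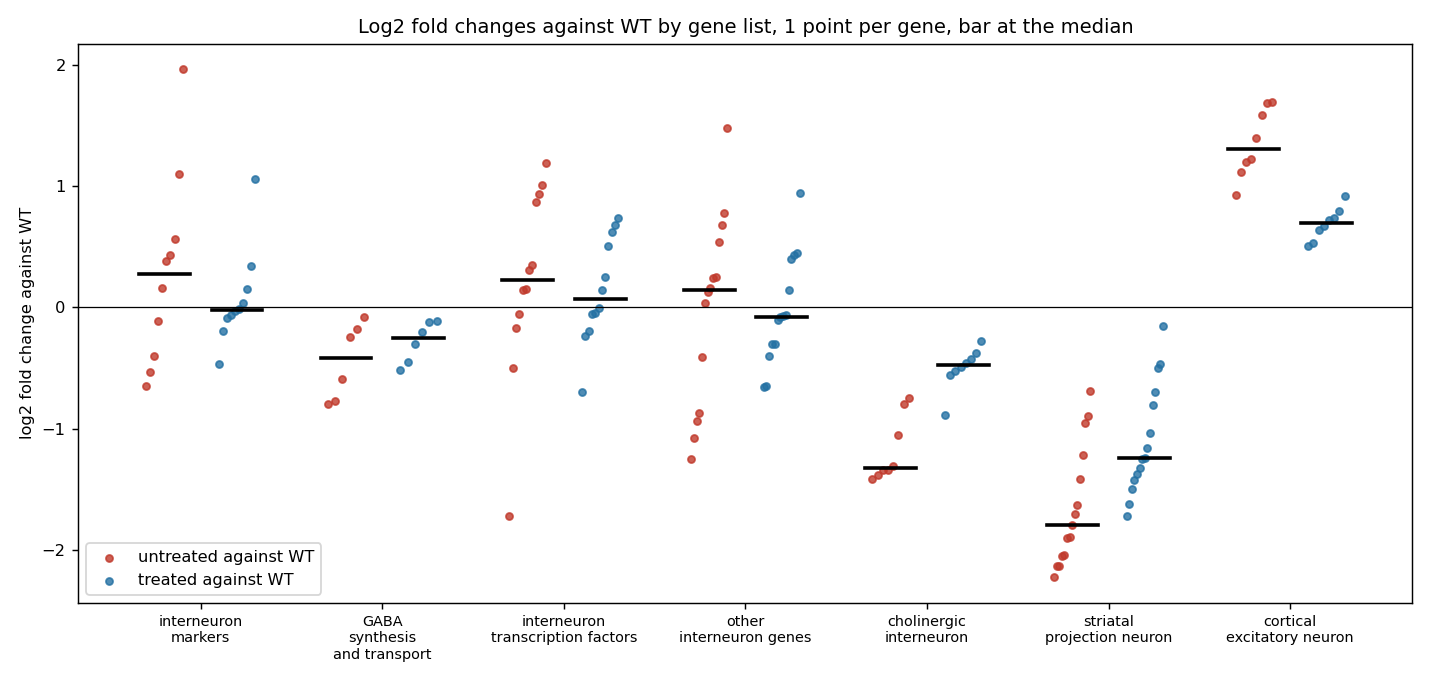
Log2 fold change against WT of each tested gene (y axis, 1 point per gene, horizontal bar at the median) in 7 gene lists (x axis), for untreated and treated mice. The interneuron markers spread around 0 (median 0.27 in untreated mice), the striatal projection neuron genes lie below 0 (median -1.79) and the cortical excitatory neuron genes above 0 (median 1.31).

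Receptors of the marker peptides gave 2 calls among 12 tested genes, 1 in each direction, which is near the share over all tested genes. In untreated mice the lower one was the somatostatin receptor Sstr5 (-1.81, SE 0.35, edgeR adjusted p = 0.0155), and the higher one was the somatostatin receptor Sstr1 (0.90, SE 0.25, edgeR adjusted p = 0.0475). Npy2r, a receptor of neuropeptide Y, was at -1.20 (SE 0.33, edgeR adjusted p = 0.0507), and 5 of the 12 had an unadjusted P under 0.05, with a median of 0.12. Sstr5 was also lower in treated mice (-1.85, SE 0.35, edgeR adjusted p = 0.0241), and the other 11 did not pass there.

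Peptides are cut and packed in dense-core vesicles, and 3 of 12 genes for this passed in untreated mice. Vgf was lower (-0.46, SE 0.12, edgeR adjusted p = 0.0414), and the granin Chgb (0.43, SE 0.12, edgeR adjusted p = 0.0490) and Scg3 (0.36, SE 0.10, edgeR adjusted p = 0.0490) were higher. The median was 0.15. In treated mice Vgf alone passed against WT, also lower (-0.54, SE 0.12, edgeR adjusted p = 0.0437).

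Beside Nos1, 2 of 8 genes of nitric oxide and cGMP signalling were lower in untreated mice. They were Gucy1b1, a subunit of the guanylyl cyclase that nitric oxide activates (-0.36, SE 0.06, edgeR adjusted p = 0.00795), and Dlg4, which encodes PSD-95, the scaffold that holds nitric oxide synthase at synapses (-0.46, SE 0.08, edgeR adjusted p = 0.00856). The median of the 8 was -0.28. Both were lower in treated mice as well, at -0.30 (SE 0.06, edgeR adjusted p = 0.0298) and -0.46 (SE 0.08, edgeR adjusted p = 0.0148). Gucy1a2 was at -0.76 in untreated mice (SE 0.29, edgeR adjusted p = 0.119).

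Of 9 calcium-binding proteins related to parvalbumin and calretinin 8 were tested, and 2 were lower in untreated mice, Hpca (-1.23, SE 0.10, edgeR adjusted p = 2.63e-04) and Necab2 (-1.26, SE 0.18, edgeR adjusted p = 0.00364). Both bind calcium in neurons, and both were also lower in treated mice, at -0.997 (SE 0.10, edgeR adjusted p = 0.00261) and -0.79 (SE 0.18, edgeR adjusted p = 0.0423). Calb1, the closest relative of Calb2 in the list, was at -0.59 in untreated mice (SE 0.18, edgeR adjusted p = 0.0678).

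The GABA interneuron markers stood beside lists for other striatal neurons. All 15 striatal projection neuron genes were lower in untreated mice, with a median of -1.79, among them Scn4b (-2.04, SE 0.11), Adora2a (-2.13, SE 0.12) and Pde10a (-2.04, SE 0.13). In treated mice 11 of the 15 were lower than in WT, with a median of -1.24. Of 8 genes of the cholinergic interneurons, the large interneurons that release acetylcholine, 5 were lower in untreated mice, with a median of -1.32. They included Slc18a3 (-1.34, edgeR adjusted p = 0.00214) and Chat, the enzyme of acetylcholine synthesis (-1.41, edgeR adjusted p = 0.00364), with Lhx8 (-1.34) and Slc17a8 (-0.80) named after their values were seen. Against WT, Chat alone of the 8 was lower in treated mice (-0.89, SE 0.20, edgeR adjusted p = 0.0405). The median of the 10 GABA interneuron markers was 0.27 and -0.02 in the same comparisons, and the difference between the lists was not tested.

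Markers of further cells that striatal tissue can hold gave the following counts by edgeR in untreated against WT mice. None of 6 thalamic neuron genes passed, or had an unadjusted P under 0.05. Of 6 tested hypothalamic neuron genes 1 was higher, Crh (1.12), which stood at only 1.40 to 3.60 CPM. Estimates were lower for 4 of the 6, and their median was -0.16. Of 10 choroid plexus genes 1 was lower, Clic6 (-2.50), while all 10 had an unadjusted P under 0.05 and a median of -3.46. Of 10 microglia genes 1 was higher, C1qa (1.90), and 7 had an unadjusted P under 0.05 (9 in treated against WT mice). Their sum in untreated mice was 516, 583 and 1339 CPM, with untreated replicate 3 apart, and C1qa stood at 65.4, 83.4 and 299 CPM in the same mice. None of 8 astrocyte genes passed, though 3 had an unadjusted P under 0.05. Of 9 tested T cell genes 5 were higher (Cd3e, Cd3g, Cd8a, Trac and Nkg7) and Cd4 was lower. Cd8a stood at 0, 0 and 0.133 CPM in WT and at 1.16, 2.75 and 19.1 CPM in untreated mice. Trac stood at 0.0756, 0 and 0.266 CPM in WT and at 0.631, 1.31 and 7.92 CPM in untreated mice. Both were thus near 0 in WT, with untreated replicate 3 apart from the other untreated mice. Cd4, in contrast, stood at 62.6, 79.8 and 73.5 CPM in WT mice, where Cd8a and Trac were near 0. In treated against WT mice the passing genes of these lists were S100b of the astrocyte list (0.49, higher) and Cd4 of the T cell list, which was lower. The part of these cells in the marker results was not tested.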

How the data were processed

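Reads from the 3′ ends of mRNA were made into a table by the authors, who deposited raw counts, whole numbers of reads per Ensembl gene without normalization, for 9 mouse libraries. Their methods name STAR, and the submitters' processing notes list Trimmomatic 0.39, FastQC 0.11.9, HISAT2 2.2.1 and featureCounts 2.0.1, so the aligner behind the mouse counts is uncertain. The mouse genome build is not given in the sources used here. In the deposited counts 378 genes hold a 1 in every library. Pig counts were not used here.

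Gene symbols were known for 94.1% of the IDs. Libraries of all 3 groups were fitted together in R 4.3.3 with edgeR 4.0.16 (filterByExpr by group, TMM scaling, glmQLFit and glmQLFTest, 6 residual degrees of freedom), with Benjamini-Hochberg adjustment over 19463 genes. The study's own cut, an unadjusted P under 0.05 or 0.01 with a 2-fold change, was an alternative. The standard error was taken from each log2 fold change and the root of its F value. CPM used TMM-scaled library sizes, and log2 CPM a prior count of 2. Nothing in the labels ties mice of different groups, and each library is 1 mouse. Intervals cover the spread between these mice, and whether duplicate reads were removed is not given in the sources used here.

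The other alternatives were no TMM factors, DESeq2 1.42.0, no filter, at least 10 counts in every library, only the groups compared, a replicate block, a term for Y-linked counts and each library left out. A term for the cortical marker sum was added after seeing the data. The 10 markers and the gene lists were chosen with earlier results of these data known. All markers were named, and from each other list the 3 genes with the smallest P between untreated and WT mice, plus the 3 most like Sst, with exceptions stated, and a few genes of the lists are not reported here. The fit was tested on simulated data. Figures used matplotlib 3.10.9.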

Additional observations from a re-analysis of the deposited data

How the results depend on the processing

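Neither edgeR nor DESeq2 called a marker between treated and untreated mice under any alternative. Between untreated and WT mice, where 1 marker was called, 3 were called (Cck, Nos1 and Vip) with DESeq2 (16.3% of all genes), with at least 10 counts in every library (12.3%), with the replicate block (10.4%) and without WT replicate 1 (12.9%). Without TMM factors the 1 called was Cck. None was called by edgeR without a filter (3.10% of all genes), with only the 2 groups (3.89%), with the Y-linked term (1.29%) or with the cortical term (0.247%), and 2 were called at 2-fold with P under 0.05 or 0.01. Leaving out 1 library gave 0 to 3. Between treated and WT mice, where 0 were called, DESeq2 (1872 of 18692 genes) and the replicate block (778 of 19463 genes) each called 1 (Nos1), and leaving out 1 library gave 0 to 2. Deviations of same-numbered mice had r from -0.08 to 0.24 in 9 pairs, above 0.1 in 2 of them, and 8 of 18 best matches were with the own number. Nothing in the labels ties same-numbered mice, so the block stands for the replicate number, and whether they share a batch was not tested. Some estimates that had not passed changed sign, among them Vip between treated and untreated mice and Cort and Chodl between untreated and WT mice. With the cortical term, log2 fold changes between untreated and WT mice were -0.0550 for Npy, 0.53 for Th, -0.88 for Cort and 0.30 for Chodl, those between treated and WT mice 0.0603 for Pvalb, 0.52 for Th, -0.14 for Cck, -0.51 for Cort and 0.56 for Chodl, and those between treated and untreated mice 0.0254 for Sst, -0.00752 for Nos1, -0.00973 for Th, 0.0851 for Vip and 0.37 for Cort. With the Y-linked term Nos1 was at -0.0452 between treated and untreated mice, and Pvalb at 0.36, Calb2 at -0.0938 and Chodl at 0.19 between treated and WT mice, and Lhx6 at 0.0510 between untreated and WT mice. Between treated and WT mice Th was at 0.0304 without TMM factors and 0.0507 with the block, and Chodl at 0.0479 without TMM factors, 0.00158 with DESeq2, 0.010006 with at least 10 counts and 0.00736 with the block. Leaving out 1 library, the values between treated and WT mice ran from -0.212 to 0.0819 for Npy, -0.33 to 0.23 for Pvalb, -0.33 to 0.21 for Th, -0.15 to 0.22 for Calb2, -0.25 to 1.18 for Cort and -0.28 to 0.19 for Chodl, those between treated and untreated mice from -0.0384 to 0.136 for Nos1 and -0.28 to 0.10 for Calb2, and those of Calb2 between untreated and WT mice from -0.0681 to 0.340. Of 43 single-gene calls given with a value, none changed direction, 43 held with DESeq2, 37 without TMM factors, 35 with the block, 29 with only the groups compared, 27 without a filter, 8 with the Y-linked term, 5 with the cortical term and 20 to 40 when 1 library was left out. The cause of these shifts was not tested. Chodl had the fewest counts, 16 to 68 in a library, which limits the precision of its values.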
